A study of Rattus norvegicus with 6 samples.

Results

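The plasminogen activator system was described here by 8 genes, taken from the count table by symbol: Plau, Plat, Plaur, Lrp1, Serpine2, Serpinb2, Serpinf1 and Anxa2. All 8 were among the 16770 genes in the table, and all 8 were among the 12614 genes with enough counts to be tested. The libraries came from cells grown out of the proximal aorta of 3-month-old rats of the spontaneously hypertensive strain (SHR) and of its normotensive control strain, Wistar Kyoto (WKY). Each strain had 3 libraries, of which replicates 1 and 2 belonged to batch 1 and replicate 3 to batch 2. The sources used here do not say what the batches were. Cells of both strains were kept in the same endothelial medium with serum and growth supplement, and no treatment was named.

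Plasminogen is a circulating zymogen that is cut into plasmin, a protease that dissolves fibrin and degrades matrix. The cut is made by urokinase (uPA, from Plau), which works mainly at the cell surface, or by tissue plasminogen activator (tPA, from Plat), the activator best known from vascular endothelium. Serpins trap the activators in covalent complexes, and such complexes are taken up through the scavenger receptor that Lrp1 encodes. Plaur encodes the urokinase receptor, and Anxa2 encodes annexin A2, which together with the S100a10 protein holds plasminogen and tPA at the membrane.

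Total counts lay between 18462032 and 19947286 per library, and 3 counts, the most that a gene with 0 counts could hide, stood for 0.151 to 0.187 CPM. Levels are CPM, the counts scaled to a common library size after TMM normalization. They do not correct for gene length and are compared between libraries, not between genes. The cells were labelled endothelial, but of 12 endothelial markers 10 were in the table and 6 of these stayed under 1 CPM in every library. Cdh5, the endothelial cadherin gene, reached at most 0.11 CPM and Tie1 at most 0.052 CPM. Higher levels were those of Egfl7, with 6.39 to 27.2 CPM over all libraries, and of Tek. Tek had 4.72 to 9.38 CPM in SHR, against 0.435 to 1.85 CPM in WKY. Summed over the list, endothelial markers held 19.6 to 37.6 CPM in SHR and 18.7 to 23.9 CPM in WKY libraries. Fibroblast markers summed to 10080 to 13580 CPM in SHR and 5265 to 13430 CPM in WKY, and smooth muscle markers to 835 to 1873 CPM in SHR and 742 to 8066 CPM in WKY. The smooth muscle maximum was WKY replicate 3. In RNA from whole cultures, fewer cells of a type and less RNA per cell cannot be told apart.

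Upstream sequence from RefSeq (build GRCr8) was matched by gene identifier for 7 of the 8 genes. Of these, 3 windows are shown. They belong to the genes whose strain difference passed an unadjusted edgeR threshold or turned round between the batches most strongly. Each holds the 250 bases before the annotated start, 5′ to 3′ along the gene. Capitals mark matches on either strand to any of 6 searched motifs. The AP-1 motif was searched as TGANTCA and the cyclic AMP response element (CRE) as TGACGTCA. For the GC box, which Sp1 family factors bind, the letters were GGGCGG. The SMAD motif known from transforming growth factor signalling was searched as CAGACA. A core promoter box was searched as TATAAA, and NF-kB sites by their consensus. The letters of adjacent GC boxes overlap in places.
Plau (chr15:3511988-3512237, minus strand): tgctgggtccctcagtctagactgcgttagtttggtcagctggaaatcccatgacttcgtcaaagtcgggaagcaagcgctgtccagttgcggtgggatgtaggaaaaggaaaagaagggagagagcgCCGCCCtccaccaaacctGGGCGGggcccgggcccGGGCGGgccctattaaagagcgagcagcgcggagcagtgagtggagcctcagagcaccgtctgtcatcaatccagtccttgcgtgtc
Serpine2 (chr9:88637203-88637452, minus strand): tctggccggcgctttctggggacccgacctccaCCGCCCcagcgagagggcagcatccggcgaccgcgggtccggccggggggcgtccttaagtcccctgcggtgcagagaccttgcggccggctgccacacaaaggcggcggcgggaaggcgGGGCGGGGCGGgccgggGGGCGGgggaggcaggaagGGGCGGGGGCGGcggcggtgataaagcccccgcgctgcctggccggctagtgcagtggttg
Serpinb2 (chr13:24055771-24056020, plus strand): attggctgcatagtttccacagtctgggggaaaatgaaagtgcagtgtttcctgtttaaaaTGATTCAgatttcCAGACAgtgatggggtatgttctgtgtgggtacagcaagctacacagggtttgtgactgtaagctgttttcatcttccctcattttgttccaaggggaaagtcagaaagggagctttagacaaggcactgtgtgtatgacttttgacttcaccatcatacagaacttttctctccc

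The windows differed in base composition. G and C made up 76.8% of the Serpine2 window, 60.0% of the Plau window and 43.2% of the Serpinb2 window, against a median of 51.2% over 33469 windows of the same length. GC boxes were found 6 times before Serpine2 and 3 times before Plau, and were also found before Lrp1 and Anxa2. At least 1 was present in 30.5% of all windows. The AP-1 letters were found before Serpinb2, starting 189 bases upstream, and before Plaur and Anxa2, whose windows are not printed. They were present in 6.34% of all windows. CAGACA was found before Serpinb2, Serpinf1 and Plaur, and in 17.2% of all windows. TATAAA was found before Anxa2 and in 12.9% of all windows. The NF-kB consensus (4.36% of windows) and the CRE letters (1.59%) matched in 0 of the 7. These matches describe letters and not binding.

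Between the strains, the urokinase gene Plau and the inhibitor gene Serpine2 stood lower in SHR at an unadjusted edgeR p below 0.05. Serpinf1 stood higher without reaching it by edgeR, though it did by DESeq2 (unadjusted p = 0.0191). None of these differences passed adjustment over all genes. By the quasi-likelihood test of edgeR, with batch as a term, 0 of the 8 genes were called at an adjusted p below 0.05, against 0.254% of all genes tested. DESeq2 also called 0 of the 8, against 5.5% of all genes. Without adjustment, 2 of 8 had a p below 0.05, against 13.3% of all genes, and both were lower in SHR, against 7.19% of all genes. With the replicate number as a block, 1 of 8 did (Serpine2), against 9.43% of all genes in that fit. Fitted differences were negative for 6 of the 8, with a median log2 fold change of -0.32, against -0.02 over all genes tested. The libraries of the strains overlapped in each of the 8 genes, whereas 9.81% of all genes showed no overlap. Within batch 1 both SHR libraries lay below both WKY libraries in 3 of the 8 (Plau, Serpine2 and Serpinb2), against 21.2% of all genes.

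**Figure D1:**
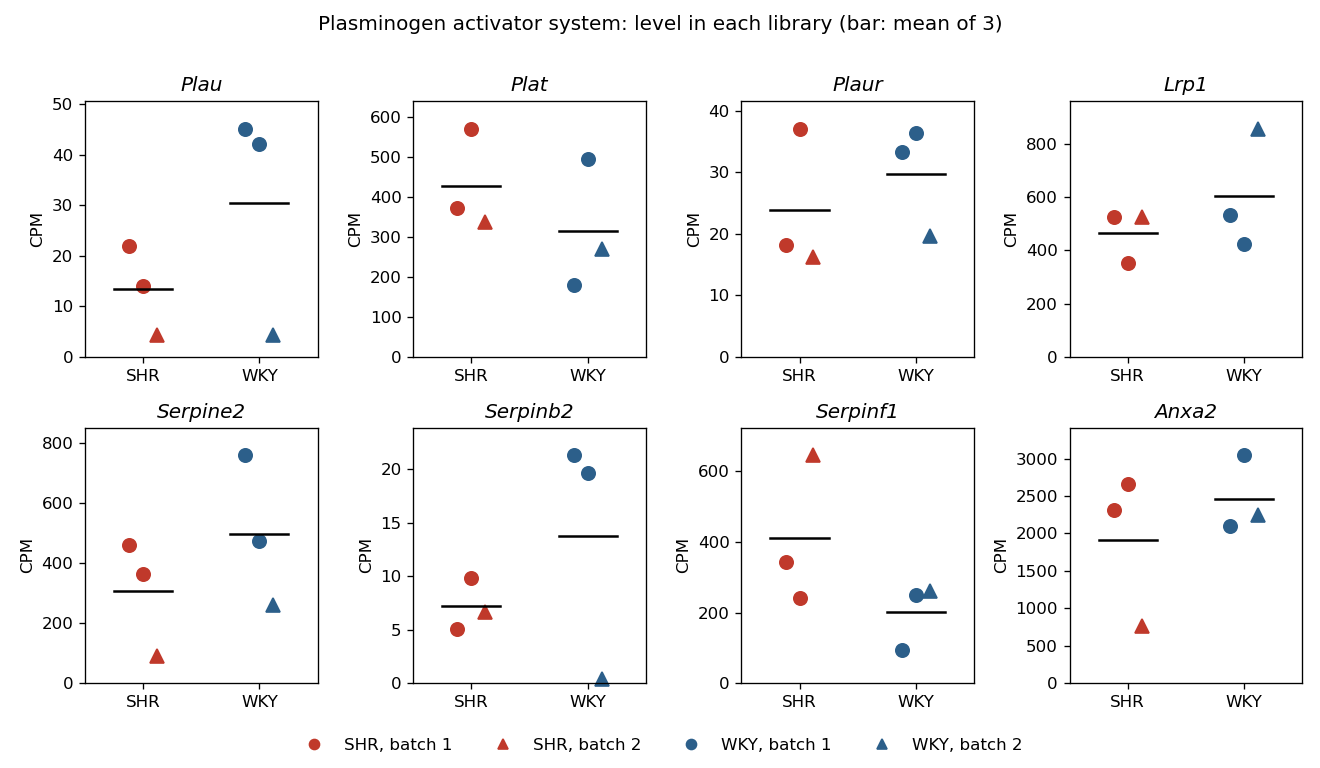
Level of each of the 8 genes in CPM (vertical axes start at 0) in the 3 SHR and 3 WKY libraries, with circles for batch 1, triangles for batch 2 and a bar at the mean of each strain. For Plau the batch 2 libraries of both strains lie near 4 CPM, below every batch 1 library, and for Anxa2 the SHR library of batch 2 lies alone at 765 CPM.

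Of the activators, Plau had 21.8, 14.0 and 4.42 CPM in SHR replicates 1 to 3, against 45.1, 42.1 and 4.23 CPM in WKY replicates 1 to 3. Within batch 1 both SHR libraries lay below both WKY libraries, while the batch 2 libraries of the strains were alike. The fit gave a log2 fold change of -0.88 (SE 0.34), or 1.84-fold lower in SHR (unadjusted p = 0.043, edgeR adjusted p = 0.364). In batch 1 alone it was -1.28 (unadjusted p = 0.00307, edgeR adjusted p = 0.204), and in batch 2 the difference of the single libraries was 0.06 on the log2 scale. With the replicate number as a block the unadjusted p was 0.0549 (edgeR adjusted p = 0.546). The unadjusted p was above 0.05 when SHR replicate 1 (0.125), SHR replicate 2 (0.126), WKY replicate 1 (0.104) or WKY replicate 2 (0.101) was left out.

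Plat had 373, 570 and 336 CPM in SHR replicates 1 to 3, against 180, 495 and 270 CPM in WKY replicates 1 to 3. Its levels overlapped between strains, with the lowest in WKY replicate 1 and the highest in SHR replicate 2. Its log2 fold change was 0.43 (SE 0.41, edgeR adjusted p = 0.693). Its differences within batch 1 (0.63) and batch 2 (0.32) had the same sign. Plat was the gene of the 8 whose estimated counts were not whole, so some of its reads were shared with other genes.

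Within a library, the ratio of the activators does not depend on how libraries are scaled. Counts of Plat over Plau stood at 17.1, 40.7 and 76.1 in SHR replicates 1 to 3, against 3.99, 11.8 and 64.0 in WKY replicates 1 to 3. In batch 1 both SHR ratios lay above both WKY ratios, by 1.94 on the log2 scale, and in batch 2 the gap was 0.25. These ratios carry the lengths of the genes, so that their level is not a ratio of molecules.

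**Figure D2:**
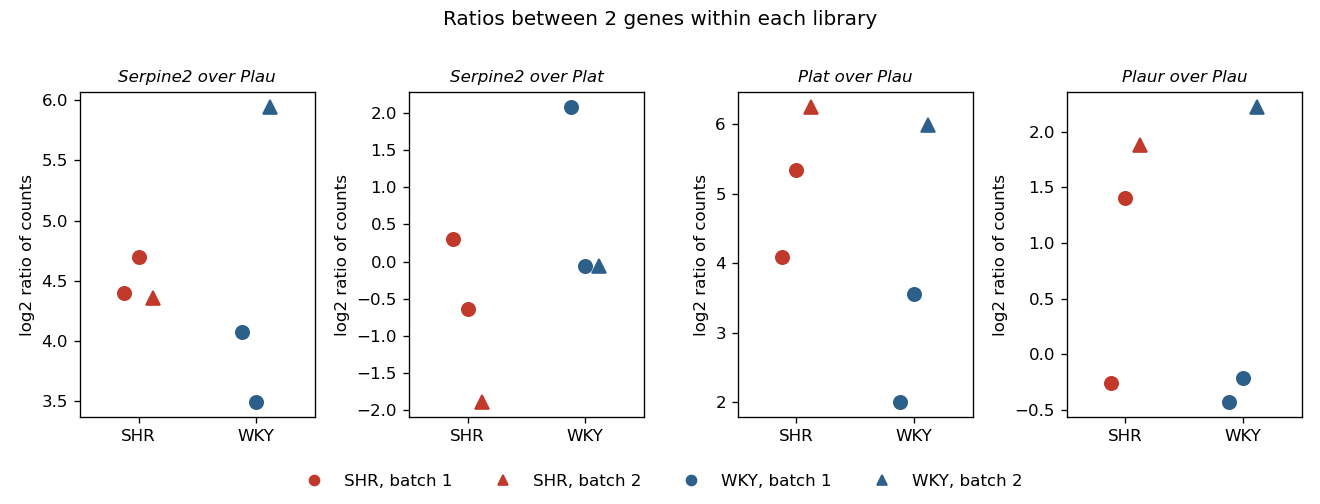
Log2 ratio of the counts of 2 genes in each SHR and WKY library, with circles for batch 1 and triangles for batch 2. Plat over Plau and Plaur over Plau are highest in the batch 2 libraries, and Serpine2 over Plau spans 4.36 to 4.70 in SHR but 3.49 to 5.94 in WKY.

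Among the serpins, Serpine2 encodes protease nexin-1, an inhibitor of thrombin, urokinase, tPA and plasmin. It had 460, 365 and 90.4 CPM in SHR replicates 1 to 3, against 759, 474 and 260 CPM in WKY replicates 1 to 3. SHR lay below WKY within each batch, and the strains overlapped only across batches. SHR over WKY, the log2 fold change was -0.89 (SE 0.30), or 1.85-fold lower in SHR (unadjusted p = 0.026, edgeR adjusted p = 0.317). Within batch 1 the difference was -0.55 and in batch 2 it was -1.52 on the log2 scale. DESeq2 gave a log2 fold change of -0.87 (SE 0.31) with an adjusted p of 0.0778, and with the replicate block the unadjusted p was 0.0295 (edgeR adjusted p = 0.477). The unadjusted p lay between 0.0782 and 0.0954 when SHR replicate 2, SHR replicate 3, WKY replicate 1 or WKY replicate 3 was left out.

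Set against its targets within a library, Serpine2 counts were 21.1, 26.0 and 20.5 times those of Plau in SHR replicates 1 to 3, against 16.8, 11.2 and 61.5 times in WKY replicates 1 to 3. The SHR ratios lay close together, and the WKY ratio was much higher in batch 2 than in batch 1. Serpine2 over Plat was 1.23, 0.64 and 0.269 in SHR replicates 1 to 3, against 4.22, 0.956 and 0.961 in WKY replicates 1 to 3. The difference between strains was -1.18 on the log2 scale in batch 1 and -1.84 in batch 2, although SHR replicate 1 lay above WKY replicates 2 and 3.

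Serpinb2 encodes plasminogen activator inhibitor 2, a largely intracellular serpin known from macrophages and keratinocytes. It had 5.09, 9.84 and 6.65 CPM in SHR replicates 1 to 3, against 21.3, 19.6 and 0.373 CPM in WKY replicates 1 to 3. The last value rests on 6 counts, against 128 counts in the SHR library of the same batch. SHR was lower in batch 1 and higher in batch 2, so the fitted log2 fold change was -0.19 with an SE of 1.23 (edgeR adjusted p = 0.961). In batch 1 alone it was -1.46 (unadjusted p = 0.00764, edgeR adjusted p = 0.291). It was positive, 0.09 to 0.96, when any 1 of the batch 1 libraries was left out. Macrophage markers summed to 13.1 to 28.2 CPM in SHR and 3.54 to 19.8 CPM in WKY, lowest in WKY replicate 3 as was Serpinb2. The highest sum, 28.2 CPM, was that of SHR replicate 3, where Serpinb2 had 6.65 CPM. Serpinb2 was highest in WKY replicate 1, with a sum of 19.8 CPM. Most of the macrophage sum was Cd68, and of the 6 markers in the table Ptprc, Adgre1 and C1qa had 0 counts in all 6 libraries. The part of macrophage content in the Serpinb2 levels was not tested.

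Serpinf1 encodes pigment epithelium-derived factor, a secreted serpin that does not inhibit proteases and is known as an inhibitor of vessel growth. It had 343, 240 and 646 CPM in SHR replicates 1 to 3, against 92.5, 249 and 262 CPM in WKY replicates 1 to 3. The strains overlapped through SHR replicate 2, and the highest level was that of SHR replicate 3. A log2 fold change of 0.95 was fitted (SE 0.41, unadjusted p = 0.0628, edgeR adjusted p = 0.403), with 0.92 within batch 1 and 1.30 in batch 2. By DESeq2 the unadjusted p was 0.0191 (adjusted p = 0.18). With limma on the deposited log2 values the unadjusted p was 0.0402 (adjusted p = 0.354). Without WKY replicate 2 the log2 fold change was 1.5 (edgeR adjusted p = 0.122), and without WKY replicate 1 it was 0.67 (edgeR adjusted p = 0.571). Of the 8 fibroblast markers 5 were also highest in SHR replicate 3 (Dcn, Lum, Pdgfra, Tcf21 and Dpt), while Col1a1 was highest in WKY replicate 3, Col3a1 in SHR replicate 1 and Twist2 in SHR replicate 2. The sum of the list, mostly collagen transcripts, was 13580, 11170 and 10080 CPM in SHR replicates 1 to 3, against 5265, 8282 and 13430 CPM in WKY replicates 1 to 3, and was thus not highest in SHR replicate 3. The part of fibroblast content in the Serpinf1 levels was not tested.

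**Figure D3:**
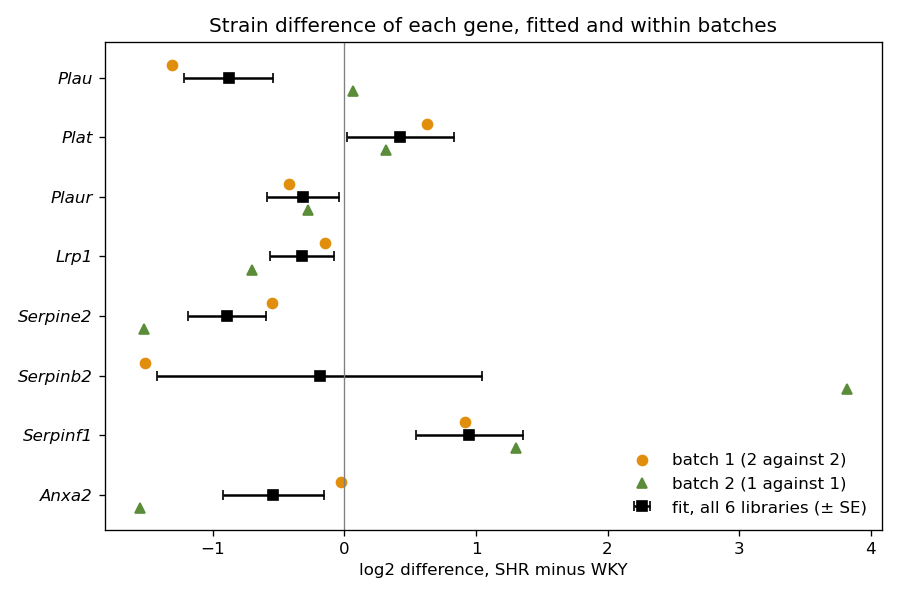
Log2 difference of SHR minus WKY for each gene, as fitted over all 6 libraries (squares, bars ± SE), within batch 1 (circles, 2 against 2 libraries) and within batch 2 (triangles, 1 against 1). Serpinb2 lies at -1.52 in batch 1 and at 3.82 in batch 2, and Anxa2 at -0.03 in batch 1 and at -1.55 in batch 2.

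Of the receptors, Plaur had 18.2, 37.1 and 16.2 CPM in SHR replicates 1 to 3, against 33.4, 36.3 and 19.7 CPM in WKY replicates 1 to 3. SHR replicate 2 was level with the batch 1 WKY libraries, and the remaining SHR libraries were lower than all of WKY. A log2 fold change of -0.32 was fitted (SE 0.27, edgeR adjusted p = 0.656). It was -0.65 without SHR replicate 2 (unadjusted p = 0.035, edgeR adjusted p = 0.407) and -0.05 without SHR replicate 1 (unadjusted p = 0.783, edgeR adjusted p = 0.944).

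Lrp1, the endocytic receptor, had 525, 352 and 527 CPM in SHR replicates 1 to 3, against 535, 424 and 858 CPM in WKY replicates 1 to 3. WKY replicate 3 stood alone above the other 5 libraries, which overlapped. The log2 fold change was -0.32 (SE 0.24, edgeR adjusted p = 0.617), with -0.15 within batch 1 and -0.70 in batch 2. WKY replicate 3 was also the library with the highest smooth muscle marker sum. Of the 8 smooth muscle markers 5 were highest in WKY replicate 3, while 3 (Cnn1, Des and Actg2) were highest in SHR replicate 3. The part of smooth muscle content in the Lrp1 level of WKY replicate 3 was not tested.

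Anxa2 had 2317, 2666 and 765 CPM in SHR replicates 1 to 3, against 2101, 3047 and 2247 CPM in WKY replicates 1 to 3. Only SHR replicate 3 lay outside the range of WKY. Its log2 fold change was -0.54 (SE 0.38, edgeR adjusted p = 0.596). In batch 1 alone it was -0.05, less than the spread between libraries. It was -0.045 without SHR replicate 3 and also -0.045 without WKY replicate 3. Either omission leaves batch 1 alone to give the strain difference, so these fits do not single out SHR replicate 3. RefSeq lists an Anxa2 pseudogene in the rat. The estimated counts of Anxa2 were whole in every library, unlike those of Plat. The sources used here do not say how reads of the pseudogene were handled, so the Anxa2 counts are uncertain. S100a10, the partner of annexin A2, named here for that role, had 516, 628 and 230 CPM in SHR replicates 1 to 3, against 258, 555 and 266 CPM in WKY replicates 1 to 3 (log2 fold change 0.26, SE 0.34, edgeR adjusted p = 0.771). It was lowest in SHR replicate 3 too, but WKY replicates 1 and 3 lay close to that level.

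Between the batches, Plau and Serpine2 fell in batch 2 in both strains. By edgeR, with strain as a term, 2 of the 8 genes were called, against 43.5% of all genes, and both were lower in batch 2, against 22.5% of all genes. DESeq2 called 2 of the 8, against 51% of all genes. Plau was 6.26-fold lower in batch 2 (log2 fold change -2.65, SE 0.40, edgeR adjusted p = 0.00537), and it was called under each of the 9 alternatives run for this comparison (highest adjusted p 0.0261). Serpine2 was 3.23-fold lower (log2 fold change -1.69, SE 0.34, edgeR adjusted p = 0.0119). Without SHR replicate 3 its log2 fold change was -1.24 and it was not called (edgeR adjusted p = 0.0544).

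The other 6 genes were not called between batches with all 6 libraries. Their log2 fold changes of batch 2 over batch 1 were 0.89 for Serpinf1 (SE 0.42), 0.56 for Lrp1 (SE 0.25), -0.40 for Plat (SE 0.44), -0.80 for Plaur (SE 0.30), -0.88 for Anxa2 (SE 0.42) and -1.86 for Serpinb2 (SE 1.33). The median over the 8 was -0.84, against -0.001 over all genes tested. With 1 library left out, Plaur was called lower in batch 2 without SHR replicate 1 (edgeR adjusted p = 0.0202) and Serpinf1 higher without WKY replicate 2 (0.0196). The log2 fold change of Anxa2 was -1.71 without WKY replicate 3, a fit in which SHR replicate 3 was the remaining library of batch 2. Within strains, batch 2 minus batch 1 was -1.70 for Anxa2 in SHR and -0.17 in WKY on the log2 scale. That of Serpinb2 was -5.75 in the fit without SHR replicate 3, in which WKY replicate 3 was the remaining library of batch 2.

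Whether the strains differed by another amount in batch 2 than in batch 1 was tested with an interaction term, which leaves 2 residual degrees of freedom. EdgeR called 0 of the 8, and 0% of all genes. Without adjustment 3 of 8 had a p below 0.05, against 12.7% of all genes, and DESeq2 called 2 of the 8, against 3.57% of all genes. Serpinb2 had the largest of these differences, 5.59 on the log2 scale (SE 0.76, unadjusted p = 0.000699, edgeR adjusted p = 0.15), and DESeq2 called it (5.59, adjusted p = 4.71e-06). Anxa2 had -1.51 (SE 0.44, unadjusted p = 0.0183, edgeR adjusted p = 0.31), which DESeq2 also called (-1.52, adjusted p = 0.029). Plau had 1.35 (SE 0.46, unadjusted p = 0.0335, edgeR adjusted p = 0.357) and was not called by DESeq2 (adjusted p = 0.344). Each batch 2 value is 1 library of each strain, so for these genes the strain and the single library cannot be told apart in batch 2.

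In both strains Plau ran lower in batch 2, by 1.96 on the log2 scale in SHR and by 3.33 in WKY. The ratio of Plaur to Plau counts was highest in the batch 2 library of each strain, at 0.834, 2.64 and 3.67 in SHR replicates 1 to 3, against 0.740, 0.862 and 4.66 in WKY replicates 1 to 3. The 3 genes with the pattern most like Plau across the 6 libraries, by Pearson correlation of log2 CPM, were Atp6v1e1 (0.995), Spop (0.994) and Dnajc7 (0.993). For Serpine2 they were Tm9sf2 (0.995), Dgat1 (0.994) and LOC103689951 (0.994). With 6 libraries that share strain and batch, correlations of this size describe these libraries only. Serpine2 and Plau correlated at 0.857 with each other, and Serpine2 and Serpinf1 at -0.857.

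Other genes of the system were read from 46 genes in 6 lists, of which 43 were in the table and 35 were tested. By edgeR 0 of the 35 were called between the strains, against 0.254% of all genes. DESeq2 called 5 of the 35, against 5.5% of all genes, 4 of them higher and 1 lower in SHR. Without adjustment, 10 of the 35 had a p below 0.05, against 13.3% of all genes. Of these, 3 were higher and 7 lower in SHR, and 7.19% of all genes were lower. The median log2 fold change of the 35 was -0.14, against -0.02 over all genes tested.

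The substrate of the activators was almost absent as a transcript. Plg, the plasminogen gene, stayed at 0 to 0.42 CPM, Vtn, the gene of the matrix protein vitronectin, had 0 counts in all 6 libraries, and Serpinf2, the gene of the main plasmin inhibitor antiplasmin, stayed at 0.11 to 0.52 CPM. None of these was tested, and they are named for their roles in the system. A2m, the gene of the broad protease inhibitor alpha-2-macroglobulin, had 0.367, 3.57 and 336 CPM in SHR replicates 1 to 3, against 31.8, 0.423 and 1.93 CPM in WKY replicates 1 to 3. Its high libraries belonged to different strains and batches, and the fitted log2 fold change was -1.12 with an SE of 3.25 (edgeR adjusted p = 0.909).

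The smallest strain p among these genes was that of Tfpi, the gene of tissue factor pathway inhibitor, which blocks the start of coagulation and is bound by the Lrp1 receptor. It had 62.9, 36.0 and 79.4 CPM in SHR replicates 1 to 3, against 10.8, 9.62 and 9.70 CPM in WKY replicates 1 to 3. All SHR libraries lay above all WKY libraries, in both batches. It was 2.53 higher on the log2 scale (SE 0.29), or 5.76-fold higher, with an edgeR adjusted p of 0.0536, just outside the threshold. With RLE factors it was 0.0471, with no filter on low counts 0.0422 and by DESeq2 6.27e-13, while with the replicate block it was 0.118, in batch 1 alone 0.12, and between 0.0908 and 0.313 with any 1 library left out. Thbd, the thrombomodulin gene of the anticoagulant surface, had 59.2 to 99.2 CPM in SHR, against at least 99.4 CPM in WKY libraries. Its log2 fold change was -0.52 (SE 0.17, edgeR adjusted p = 0.316), and DESeq2 did not call it either (adjusted p = 0.174).

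Of the receptors and partners of the activators, Vldlr, whose product takes up complexes of urokinase with its inhibitors, had 58.9, 49.7 and 113 CPM in SHR replicates 1 to 3, against 104, 112 and 549 CPM in WKY replicates 1 to 3. SHR lay below WKY within each batch. The log2 fold change was -1.42 (SE 0.30, edgeR adjusted p = 0.186), called by DESeq2 (adjusted p = 0.000712). Itgb3, the beta-3 integrin gene of the vitronectin receptor, had 6.35, 9.38 and 17.3 CPM in SHR replicates 1 to 3, against 0.757, 3.70 and 1.06 CPM in WKY replicates 1 to 3. SHR lay above WKY throughout, with a log2 fold change of 2.50 (SE 0.78, edgeR adjusted p = 0.299). DESeq2 called it (adjusted p = 0.0168), as did edgeR without WKY replicate 2 (adjusted p = 0.0483).

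Among plasminogen receptors, Plgrkt, which encodes a membrane receptor for plasminogen, had 17.3 ± 8.87 CPM in SHR and 22.7 ± 10.4 CPM in WKY (SD, n = 3 each), with a log2 fold change of -0.44 (SE 0.14, edgeR adjusted p = 0.296). These SDs include a fall in batch 2 (log2 fold change -1.53, edgeR adjusted p = 0.00206). Within batches, SHR minus WKY was -0.36 in batch 1 and -0.59 in batch 2 on the log2 scale. Eno1, the enolase gene whose product also binds plasminogen at the surface, had 915 ± 407 CPM in SHR and 1218 ± 95.3 CPM in WKY, with a log2 fold change of -0.52 (SE 0.33, edgeR adjusted p = 0.547). SHR replicate 3 (465 CPM) lay far below SHR replicates 1 and 2 (1024 and 1255 CPM). Without SHR replicate 3 the log2 fold change of Eno1 was -0.08, and without WKY replicate 3 it was also -0.08. Either omission leaves batch 1 alone to give the strain difference, so these fits do not single out SHR replicate 3. The substrate gene Hgf, for the growth factor that urokinase can activate, had 18.1 ± 8.38 CPM in SHR and 11.9 ± 2.98 CPM in WKY, and was not called by edgeR (adjusted p = 0.493). St14, the matriptase gene, had 3.60 ± 0.43 CPM in SHR and 3.85 ± 1.25 CPM in WKY, and was not called by edgeR either (adjusted p = 0.922).

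Of the other serpins, 8 of 11 were tested. Serpinb9, the granzyme B inhibitor gene, had 71.3 ± 17.9 CPM in SHR and 113 ± 10.1 CPM in WKY (SD, n = 3 each), with no overlap between strains and a log2 fold change of -0.67 (SE 0.21, edgeR adjusted p = 0.292). Serpinb1a, an inhibitor of neutrophil proteases, had 0.42, 0.867 and 19.3 CPM in SHR replicates 1 to 3, against 0.05, 0.317 and 1.80 CPM in WKY replicates 1 to 3. The batch 1 values rest on few counts, 8 and 17 in SHR replicates 1 and 2, against 1 and 6 in WKY replicates 1 and 2. Serpinb1a was higher in SHR within each batch and highest in both strains in batch 2 (strain log2 fold change 2.54, SE 0.71, edgeR adjusted p = 0.259). DESeq2 called it (adjusted p = 0.021).

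**Figure D4:**
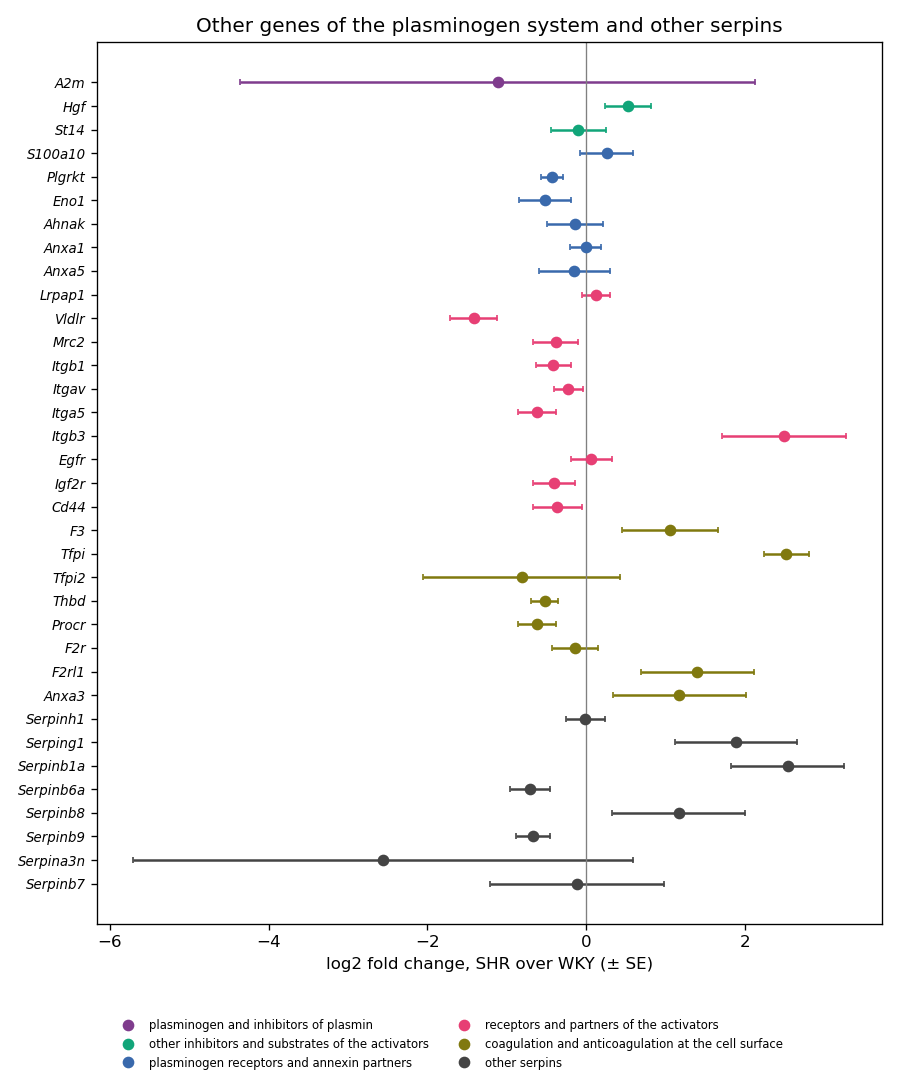
Log2 fold change of SHR over WKY (points, bars ± SE) for the 35 tested genes of the 6 further lists, coloured by list. Tfpi lies at 2.53, Itgb3 at 2.50 and Vldlr at -1.42, and A2m and Serpina3n have the widest bars.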

How the data were processed

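RNA of 6 libraries, 3 SHR and 3 WKY, was sequenced with paired-end 100 bp reads on a DNBSEQ instrument, per the labels' protocols. The authors deposited estimated counts per gene, not normalized; 8.96% were not whole (tolerance 0.001). Bowtie2 2.4.4, RSEM 1.2.28, DESeq2 1.42.1 and Rnor_6.0 are named without roles, per the submitters' processing notes. No strand setting is given. The authors also deposited log2 values, whose batch means were equal in every gene (largest difference 7.5e-09). These were used as an alternative only.

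Estimated counts were rounded, filtered with filterByExpr by strain (12614 of 16770 genes kept) and scaled by TMM. The quasi-likelihood test of edgeR 4.0.16 in R 4.3.3 modelled strain beside batch, which left 3 degrees of freedom for the residuals, with Benjamini-Hochberg adjustment over all genes tested and a threshold of 0.05. All tests were two-sided. Fold changes are SHR over WKY, or batch 2 over batch 1. Standard errors (SE) were computed as the absolute log2 fold change over the square root of F. Differences within batches are of mean log2 CPM with a prior count of 2. Floors cover counting error only, whereas an SE also includes the spread between libraries. Alternatives were DESeq2 1.42.0, RLE factors, no filter, no batch term, the replicate block, each library left out, batch 1 alone, and limma 3.58.1 on the deposited log2 values.

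The labels do not say that replicate numbers pair libraries. Deviations from the strain means correlated at 0.303, 0.40 and 0.655 between libraries of the same number, above the 0.1 set as the rule for pairing, but SHR replicates 1 and 2 each correlated more with the WKY library of the other number (0.484 and 0.493), so the numbers carry little beyond batch. No source says whether libraries came from separate animals, so a p-value reflects the library-to-library spread, which may be technical. No 2 libraries agreed within sampling noise (chi-square per gene at least 38.9).

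The 8 genes and the lists were chosen with earlier results of these data known. Named genes of the lists were the 2 with the smallest strain p in each list among those of at least 1 CPM on average, and any called. The file lists Serpinb6 as Serpinb6a, and 3 list genes were not matched. Other inhibitors of the activators are not reported here. In 3 simulations of SHR against WKY over 12614 genes, edgeR recovered 79.5% of genes changed 4-fold and 21.5% of those changed 2-fold.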

Additional observations from a re-analysis of the deposited data

Results flagged for a closer look

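The strain difference of 3 genes differed between the batches at an unadjusted p below 0.05, by the interaction term of edgeR, and none of the 3 passed adjustment over all genes. For Serpinb2 the difference in batch 2 minus that in batch 1 was 5.59 on the log2 scale, with 6 counts in WKY replicate 3 behind it. For Plau it was 1.35, where the strains were apart in batch 1 and alike in batch 2. For Anxa2 it was -1.51, where SHR replicate 3 had 765 CPM and WKY replicate 3 had 2247 CPM. Batch 2 holds 1 library of each strain.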

How the results depend on the processing

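With no batch term 2 genes were called between strains and 0 of the 8 members had an unadjusted p below 0.05; with the replicate block these counts were 6 and 1. DESeq2 called 694 genes between strains, 5 of the 35 list genes and 2 members for the interaction. By DESeq2, 3 members (Serpine2, Plau and Serpinf1) had an unadjusted strain p below 0.05. The same 3 did with limma on the deposited log2 values. Of the list genes 1 (Tfpi) was called with RLE factors and 1 (Tfpi) with no filter. With 1 library left out, 0 to 65 genes were called between strains (0 without SHR replicate 1 or 2, 4 without WKY replicate 1, 65 without WKY replicate 2, 20 without WKY replicate 3), 0 to 2 members had an unadjusted p below 0.05 (0 without WKY replicate 1, 1 without SHR replicate 1 or 2), and 0 to 1 list genes were called (Itgb3, without WKY replicate 2). In every alternative 0 members were called between strains.

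The strain difference of Serpinb2 was between -1.45 and 0.96 on the log2 scale with 1 library left out, and positive without a batch 1 library (0.96 and 0.45 without SHR replicates 1 and 2, 0.17 and 0.09 without WKY replicates 1 and 2). That of A2m was positive with no batch term (3.31), with the replicate block (2.59) and on the deposited log2 values (1.30), and lay between -3.02 and 6.09 with 1 library left out, positive without SHR replicate 1 (2.34), SHR replicate 2 (1.35) or WKY replicate 1 (6.09). That of St14 lay between -0.34 and 0.22 with 1 library left out, positive without WKY replicate 2 (0.22). The cause was not tested. The other 7 members kept their strain direction in all 13 alternatives. TMM and RLE factors differed by 0.02 in the median log2 fold change. With 3 residual degrees of freedom, 2-fold changes were mostly below what the test recovers.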

Other observations

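A pair of secreted protease inhibitors stood high in the same libraries. Serpina3n, chosen after its values were seen, had 3.26, 1.99 and 230 CPM in SHR replicates 1 to 3, against 100, 8.83 and 2.92 CPM in WKY replicates 1 to 3, so that SHR replicate 3 and WKY replicate 1 held the highest levels, as for A2m. Serping1, the gene of the complement C1 inhibitor and also chosen after its values were seen, had 225, 98.6 and 1974 CPM in SHR replicates 1 to 3, against 47.6, 109 and 148 CPM in WKY replicates 1 to 3. It was high in SHR replicate 3 but lowest in WKY replicate 1. Its log2 fold change of SHR over WKY was 1.89 (SE 0.77, edgeR adjusted p = 0.389), and DESeq2 called it (1.90, adjusted p = 0.0456). Mesothelial markers summed to 383, 520 and 1197 CPM in SHR replicates 1 to 3, against 639, 311 and 83.6 CPM in WKY replicates 1 to 3, and were also highest in SHR replicate 3. Their part in these levels was not tested.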
